A study of Mus musculus with 24 samples.

Results

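The leptin receptor and the proteins that carry, brake or share its signal were followed in mouse liver through 8 genes: Lepr, Jak2, Stat3, Socs2, Socs3, Ptpn1, Irs1 and Irs2. All probe sets that the array's platform annotation ties to a single gene symbol, and whose symbol is one of these, were taken, which gave 23 probe sets among 45037 tested and 8 genes among 18193 named ones. Lepr had 4 of them, Socs2 had 6, Stat3 had 4, Socs3 had 3, Jak2 and Ptpn1 had 2 each, and Irs1 and Irs2 had 1 each. The family was chosen by the lower Lepr values on the high-fat diet, so the values of Lepr are a description, given without p-values or intervals in both comparisons, since the HF mice are in each. Where Lepr probe sets are counted among those passing the fit over all probe sets, nothing is read from the count.

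Leptin is a hormone of fat tissue. The long form of its receptor has no enzyme activity of its own and works through the bound kinase JAK2, which phosphorylates the transcription factor STAT3; STAT3 then raises SOCS3, which blocks the receptor and JAK2 in a feedback loop. The phosphatase PTP1B, encoded by Ptpn1, removes phosphate from JAK2 and from the insulin receptor, and IRS1 and IRS2 pass the signal of the insulin receptor on to PI3 kinase. In liver the short forms of the leptin receptor prevail and a soluble form is released into blood. JAK2 also serves the growth hormone receptor, whose STAT5 signal raises Socs2 and Igf1.

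All animals were male C57BL6J mice fed for 4 weeks and starved for 16 h before dissection. The 6 LF mice received the low-fat diet on which all groups had been acclimated, the 6 HF mice a 45% high-fat diet, and the 6 HF+P mice that high-fat diet with 5% powder of Japanese yam propagules. RNA of small liver pieces was hybridised, so fewer cells of a type and less RNA per cell cannot be told apart. Nothing in the labels says how the mice were housed or grouped, and p-values measure the spread between these samples.

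The deposited table holds each HF mouse in 2 value sets, one processed with LF and the other with HF+P. Each comparison was made inside its own set of 12 columns, and no level was set across them. The values were read as log2 values, but they hardly move between arrays: the median probe set had an SD of 4.17e-06 among the LF and HF mice and of 4.26e-06 among the HF and HF+P mice, and spanned 3 and 2 ranks among all 45037 probe sets. A difference is therefore no fold change. Sizes are standardized differences, that is group means subtracted and divided by the SD pooled within groups, with Hedges' correction. In HF against LF 302 of 45037 probe sets passed (limma, Benjamini-Hochberg adjusted p below 0.05), 121 higher and 181 lower; the split depends on the scaling, with 219 higher and 7086 lower after quantile normalisation and 322 higher and 42047 lower after centring on column medians. In HF+P against HF 1 probe set passed. Hepatocyte markers were among the brightest probe sets, with a median percentile of 99.9 among all probe sets for the 7 measured.

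Promoter windows are shown first for the genes in which any of the motifs named below was found. RefSeq windows of GRCm38.p6 reach from 250 bases before to 50 after a gene start, and 7 of the 8 genes had at least 1 (8 windows, 2 of them for Lepr); Socs2 was not matched. The letters searched, on both strands, were TTCNNNGAA, the palindrome read by STAT factors, TGTTTTG, a form of the insulin response sequence read by FOXO factors (CAAAACA on the other strand), and the palindromic E-box CACGTG. These motifs were chosen after the windows had been seen. Of 32851 windows of the same length, 8.30% held the STAT letters, 6.28% the FOXO letters, 7.15% the E-box, and 0.408% both the FOXO letters and the E-box. The STAT letters lay in Socs3, from base 154 to base 146 before the start. Irs1 and Irs2 each held an E-box with the FOXO letters beside it, sharing 2 bases with it in Irs1 and 1 base apart in Irs2; Irs1 held the FOXO letters once more nearer the start, from base 32 to base 26. Lepr held the FOXO letters, on the other strand, at the second start only, from base 114 to base 108. The windows of Jak2, Stat3 and Ptpn1 held none of these letters. A match is a string of letters and not a measured site. Sequences are written 5′ to 3′ on the strand of the gene and end before the start; capitals mark the motifs.
Socs3 (chr11:117969487-117969545, minus strand): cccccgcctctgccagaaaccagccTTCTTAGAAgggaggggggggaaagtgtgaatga
Irs1 (chr1:82291440-82291579, minus strand): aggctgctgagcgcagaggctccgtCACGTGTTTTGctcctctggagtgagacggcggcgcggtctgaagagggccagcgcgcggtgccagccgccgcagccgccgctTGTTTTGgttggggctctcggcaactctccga
Irs2 (chr8:11008935-11008998, minus strand): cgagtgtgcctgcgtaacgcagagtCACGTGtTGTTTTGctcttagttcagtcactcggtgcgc
Lepr, second start (chr4:101717656-101717905, plus strand): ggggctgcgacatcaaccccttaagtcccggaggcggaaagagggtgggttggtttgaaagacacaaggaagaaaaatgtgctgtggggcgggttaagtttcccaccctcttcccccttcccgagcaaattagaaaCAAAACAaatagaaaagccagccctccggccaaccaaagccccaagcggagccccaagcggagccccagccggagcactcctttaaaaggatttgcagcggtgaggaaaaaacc

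What high-fat loading does was asked by setting HF against LF, and there 3 of the 4 Lepr probe sets were lower in all 6 HF mice than in any LF mouse. For 1456156_at the LF mice ranged from 7.334 to 7.421 with a median of 7.367, and the HF mice from 7.286 to 7.311 with a median of 7.297. The group means were 7.370 ± 0.0285 in LF and 7.297 ± 0.0103 in HF (SD, n = 6 each), a standardized difference of -3.16. LF mouse 8 stood highest and LF mouse 2 lowest, and even the latter lay above the whole HF group.

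The probe set 1425644_at gave the same picture, with LF mice from 6.780 to 6.846 (median 6.803), HF mice from 6.739 to 6.760 (median 6.753) and a standardized difference of -3.05. For 1425875_a_at the LF mice ranged from 7.219 to 7.231 (median 7.223) and the HF mice from 7.214 to 7.217 (median 7.215), with a standardized difference of -2.54. These probe sets read the same gene on the same arrays, so their likeness adds no separate support for the lower level. LF mouse 8 was the highest and LF mouse 2 the lowest in all 3, and the order of the LF mice matched between 1456156_at and 1425644_at in 15 of 15 pairs of mice and between either of them and 1425875_a_at in 14 of 15. Over the 12 mice 1456156_at spanned 1460 ranks among all probe sets, 1425644_at 2390 and 1425875_a_at 240, where the median probe set spanned 3. By mean level 1425644_at was in the dimmer part, at percentile 44.6 of all probe sets, with 1456156_at at 65.1 and 1425875_a_at at 61.9.

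**Figure D1:**
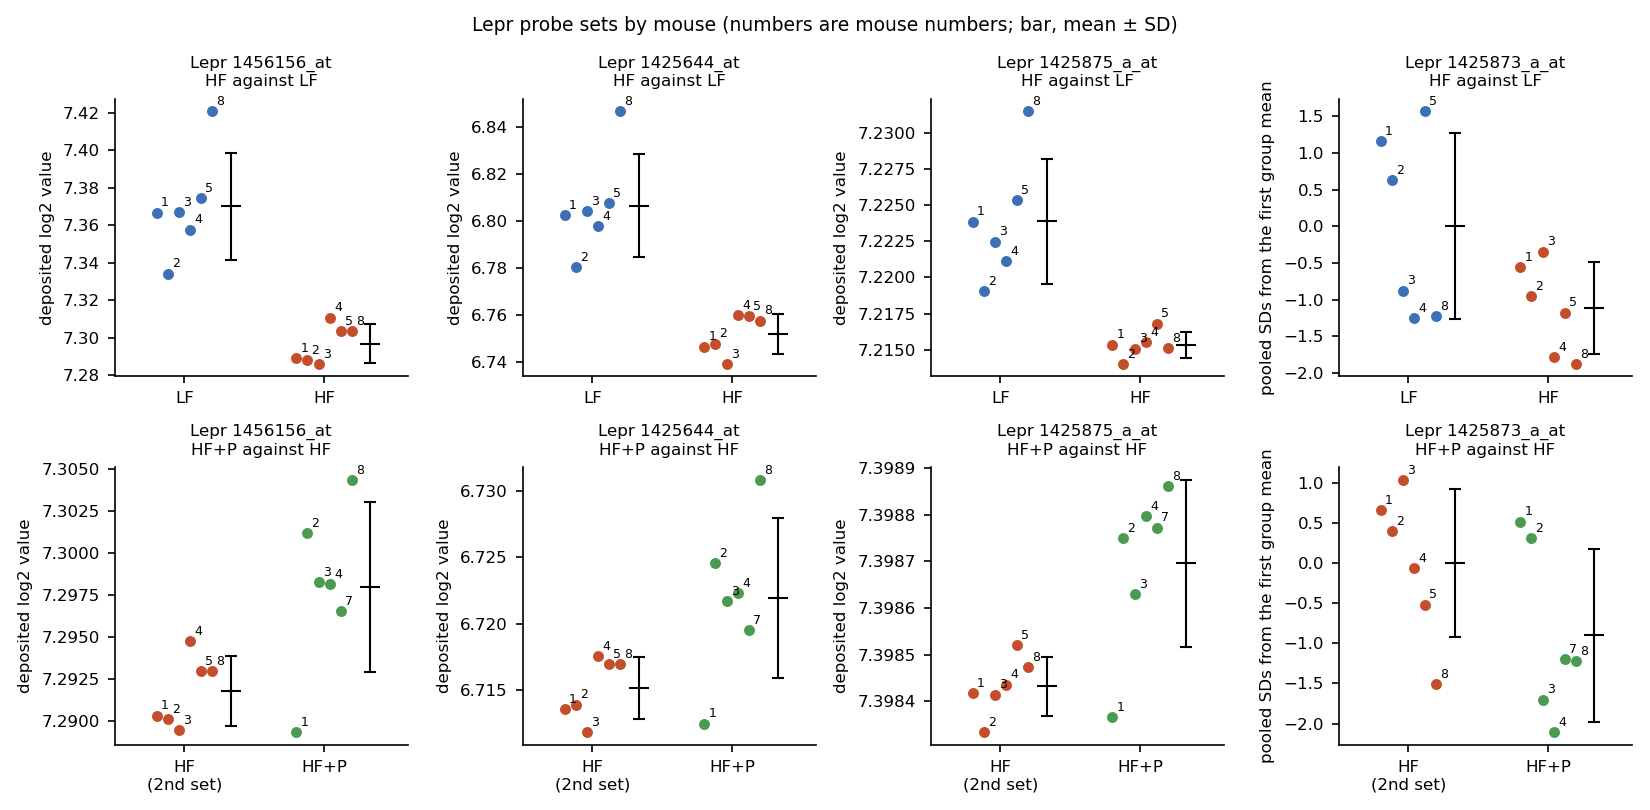
Values of the 4 Lepr probe sets for each mouse, in HF against LF (upper row) and HF+P against HF (lower row); the vertical axis is the deposited log2 value, or for 1425873_a_at the distance from the first group's mean in pooled SDs, points carry the mouse number, and bars show mean ± SD (n = 6). In the first 3 panels of the upper row all HF mice lie below all LF mice, and in those of the lower row 5 of 6 HF+P mice lie above all HF mice while HF+P mouse 1 does not.

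The fourth probe set, 1425873_a_at, did not share this picture. Its groups overlapped: the LF mice lay between -1.25 and 1.57 pooled SDs from the LF mean and the HF mice between -1.87 and -0.34, with 2 HF mice below every LF mouse and a standardized difference of -1.03. Its deposited spread was also of another order, with a pooled SD of 2.96e-06 against 0.0214 for 1456156_at, and it ordered the LF mice as 1456156_at did in 8 of 15 pairs and the HF mice in 2 of 15. It spanned 1 rank and was dim, at percentile 30.9 of all probe sets by mean level. The suffix _a_at marks a probe set that matches several transcripts of a gene; which receptor forms each of the 4 probe sets reads was not analysed here.

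Within HF the values of 2 of the 4 Lepr probe sets split by mouse. In 1456156_at and in 1425644_at mice 4, 5 and 8 lay above mice 1, 2 and 3, and the order was the same in 15 of 15 pairs for each when the HF arrays had been processed with HF+P instead. In 1425875_a_at mouse 8 lay below mouse 1, and in 1425873_a_at mice 4, 5 and 8 lay below mice 1, 2 and 3. The spread was not the same: the SD of the 6 HF mice was 4.93 times as large in the set with LF for 1456156_at, 3.63 times for 1425644_at and 14.3 times for 1425875_a_at. Standardized differences of the 2 comparisons are therefore on different rulers.

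Of the 23 member probe sets 2 passed, 1456156_at and 1425644_at of Lepr, both lower in HF, where 0.671% of all probe sets passed; 3 had HF mice all below the LF mice, all of Lepr, where 0.921% of all probe sets did. The counts rested on few mice: both calls were lost in 6 of 12 fits without 1 mouse (LF mouse 1, 3 or 5, or HF mouse 1, 2 or 3), and that of 1425644_at also without HF mouse 4. Without LF mouse 8 the standardized differences were -4.46 and -4.47. The direction of these 3 probe sets was the same after quantile normalisation and after each way of centring. As these values chose the family, this describes the scaling and is no support for the difference.

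Markers of other liver cells were read beside Lepr, with 1 probe set per gene and each mouse's score the mean distance from the LF mean in pooled SDs. Of 8 endothelial markers 6 were lower in HF and 0 passed (limma; median -0.76); the scores ranged from -0.56 to 0.68 in LF and from -0.71 to 0.02 in HF. Of 8 stellate cell markers 7 were higher and 0 passed (median 0.67), with scores from -0.58 to 0.71 in LF and from 0.11 to 1.37 in HF. Over all 19 probe sets of the stellate cell markers 1 passed, where 0.671% of all probe sets did. It was a further probe set of Lrat, which esterifies vitamin A in stellate cells, and was higher (standardized difference 3.01; limma, adjusted p = 0.0300). As it was picked by passing, nothing is read from it. All 8 Kupffer cell and all 6 lymphocyte and NK cell markers measured were higher, with medians of 0.65 and 0.66 and 0 passing, and of 7 hepatocyte markers 5 were lower (median -0.56). The part of any of these cells in the Lepr values was not tested.

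Jak2, the kinase bound to the receptor, did not pass with either probe set. For 1421066_at the LF mice lay between -1.72 and 1.14 pooled SDs from the LF mean (median 0.08) and the HF mice between -0.29 and 2.41 (median 0.48), a standardized difference of 0.72 (95% interval -0.389 to 1.79; limma, adjusted p = 0.626). The groups overlapped, with 2 HF mice above all LF mice. For 1421065_at the value was 0.05 (-0.996 to 1.09), and its sign changed in 6 of 12 fits without 1 mouse. Both values turned negative after centring on column medians, and that of 1421066_at also after quantile normalisation.

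Stat3, the transcription factor of the pathway, had values above 0 with all 4 probe sets, and 0 of 4 passed (limma). The values were 0.80 (-0.322 to 1.88; limma, adjusted p = 0.571) for 1426587_a_at, 0.46 (-0.616 to 1.51) for 1460700_at, 0.31 (-0.749 to 1.36) for 1424272_at and 0.05 (-0.992 to 1.10) for 1459961_a_at. HF mouse 3 was the highest HF animal in 3 of them, at 2.63 pooled SDs from the LF mean in 1426587_a_at and 2.68 in 1460700_at. All 4 had negative values after centring on column medians, and all but 1460700_at after quantile normalisation.

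Socs3, the feedback inhibitor that STAT3 induces, differed more between mice of a group than between diets. For 1455899_x_at the LF mice ranged from 7.406 to 7.414 (median 7.411) and the HF mice from 7.407 to 7.413 (median 7.412), and the standardized difference was 0.23 (-0.825 to 1.27; limma, adjusted p = 0.908). Mouse 1 was the lowest and mouse 4 the highest of its group in both LF and HF, and without LF mouse 1 the value was below 0. The other probe sets had values of 0.27 (-0.788 to 1.31) for 1456212_x_at and 0.44 (-0.631 to 1.49) for 1416576_at; the latter turned negative after centring on column medians. The 3 probe sets ordered the HF mice alike in 15 of 15 pairs and the LF mice in 13 or 14 of 15.

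Socs2, an inhibitor of growth hormone signalling, had the widest spread of the members beside Lepr. For 1449109_at the LF mice ranged from 8.146 to 8.181 (median 8.165) and the HF mice from 8.149 to 8.206 (median 8.169), with SDs of 0.0144 and 0.0233. Its SD over the 12 mice stood at the 99.8th percentile of all probe sets and its ranks spanned 378, while the standardized difference was 0.40 (-0.670 to 1.45; limma, adjusted p = 0.818). The HF mice fell into a lower part, mice 1, 2 and 3 between 8.149 and 8.155, and a higher part, mice 4, 5 and 8 between 8.183 and 8.206.

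The same HF mice were apart in 1418507_s_at, where mice 1, 2 and 3 lay between 7.507 and 7.508 and mice 4, 5 and 8 between 7.527 and 7.540, and its standardized difference was 0.31 (-0.750 to 1.36). These are also the mice that were low and high in Lepr 1456156_at and 1425644_at; what they share was not tested. In LF, mice 3 and 4 were highest in Socs2 and mice 2 and 5 lowest, which is not the order of Lepr there. The other 4 Socs2 probe sets had values of 0.54, 0.44, 0.32 and -0.36, and 2 of them, 1438470_at and 1442586_at, turned negative under both quantile normalisation and centring on column medians.

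**Figure D2:**
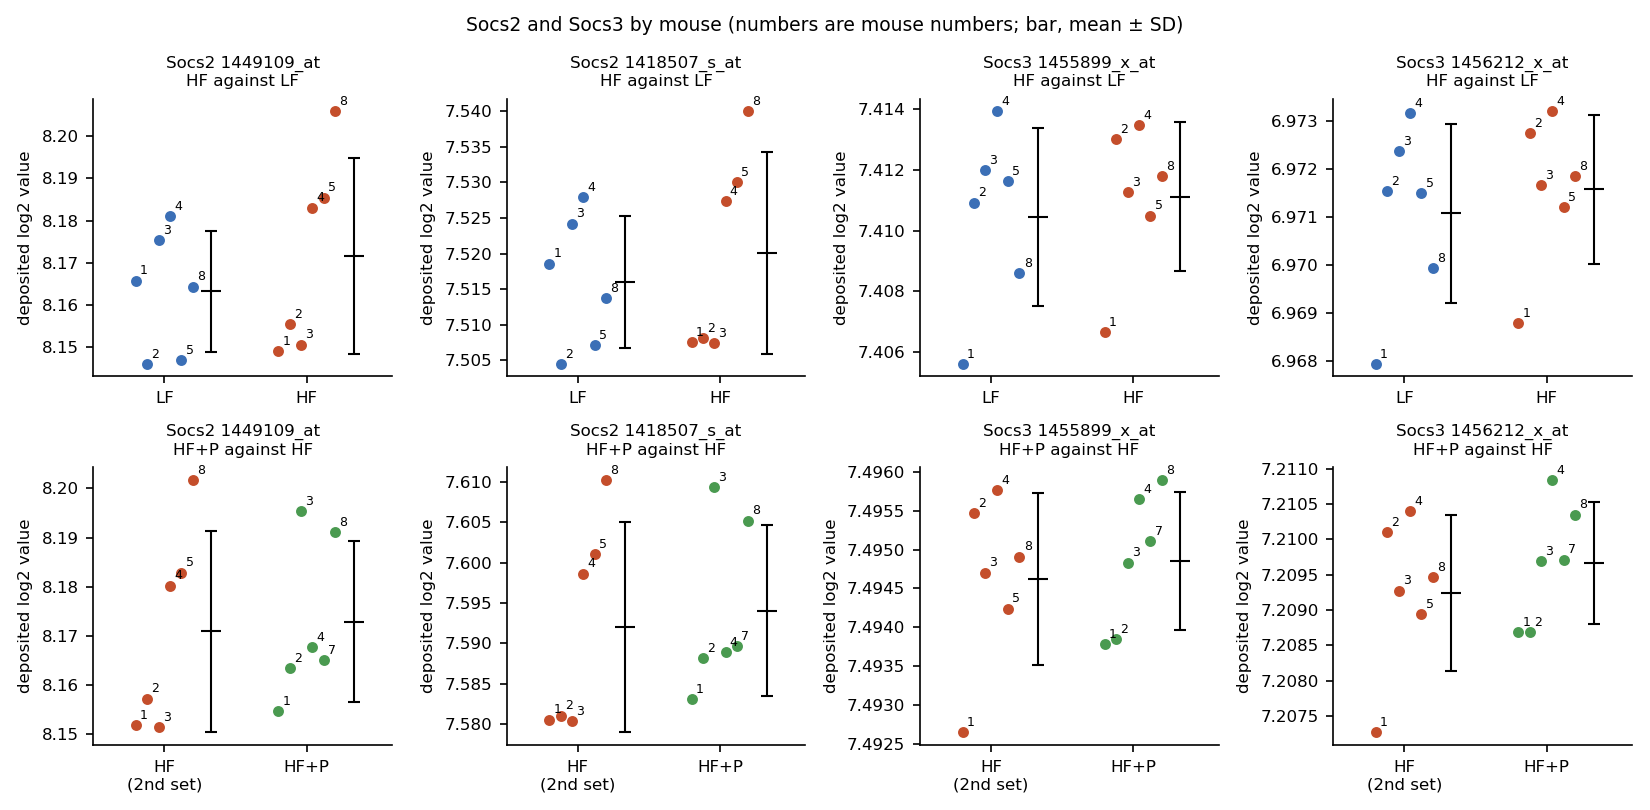
Deposited log2 values of a pair of probe sets each for Socs2 and Socs3 by mouse, HF against LF above and HF+P against HF below; points carry the mouse number and bars show mean ± SD (n = 6). The groups overlap in every panel, HF mice 4, 5 and 8 lie above HF mice 1, 2 and 3 in Socs2, and mouse 1 is the lowest HF animal in Socs3.

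Ptpn1, which encodes the phosphatase PTP1B, had values of 0.70 (-0.407 to 1.77; limma, adjusted p = 0.641) for 1438670_at and 0.55 (-0.536 to 1.61; adjusted p = 0.723) for 1417068_a_at. In both probe sets HF mouse 3 was the highest, at 2.74 pooled SDs from the LF mean in 1438670_at. Both values turned negative under quantile normalisation and under centring on column medians, so no direction is given.

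The insulin receptor substrates had lower values in HF and did not pass on the deposited scale. For Irs1 1423104_at the LF mice lay between -1.78 and 1.29 pooled SDs from the LF mean (median -0.03) and the HF mice between -1.81 and 0.70 (median -1.20), a standardized difference of -0.89 (-1.99 to 0.240; limma, adjusted p = 0.515). Mouse 1 was the highest in each group and 1 HF mouse lay below all LF mice. The sign was kept under every scaling tried, and after centring on column medians the value was -1.14 and passed (limma, adjusted p = 0.0423). Under that centring 42369 of 45037 probe sets passed, 42047 of them lower, so nothing is read from passing there for Irs1 or Irs2. For Irs2 1443969_at the LF mice lay between -1.42 and 1.95 (median -0.23) and the HF mice between -1.22 and 0.55 (median -0.61), all inside the LF range, and the standardized difference was -0.47 (-1.53 to 0.602; adjusted p = 0.772), which turned positive after quantile normalisation and was -2.59 and passed after centring on column medians (adjusted p = 0.000507). Both genes, whose windows hold the E-box and FOXO letters shown above, had overlapping groups.

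**Figure D3:**
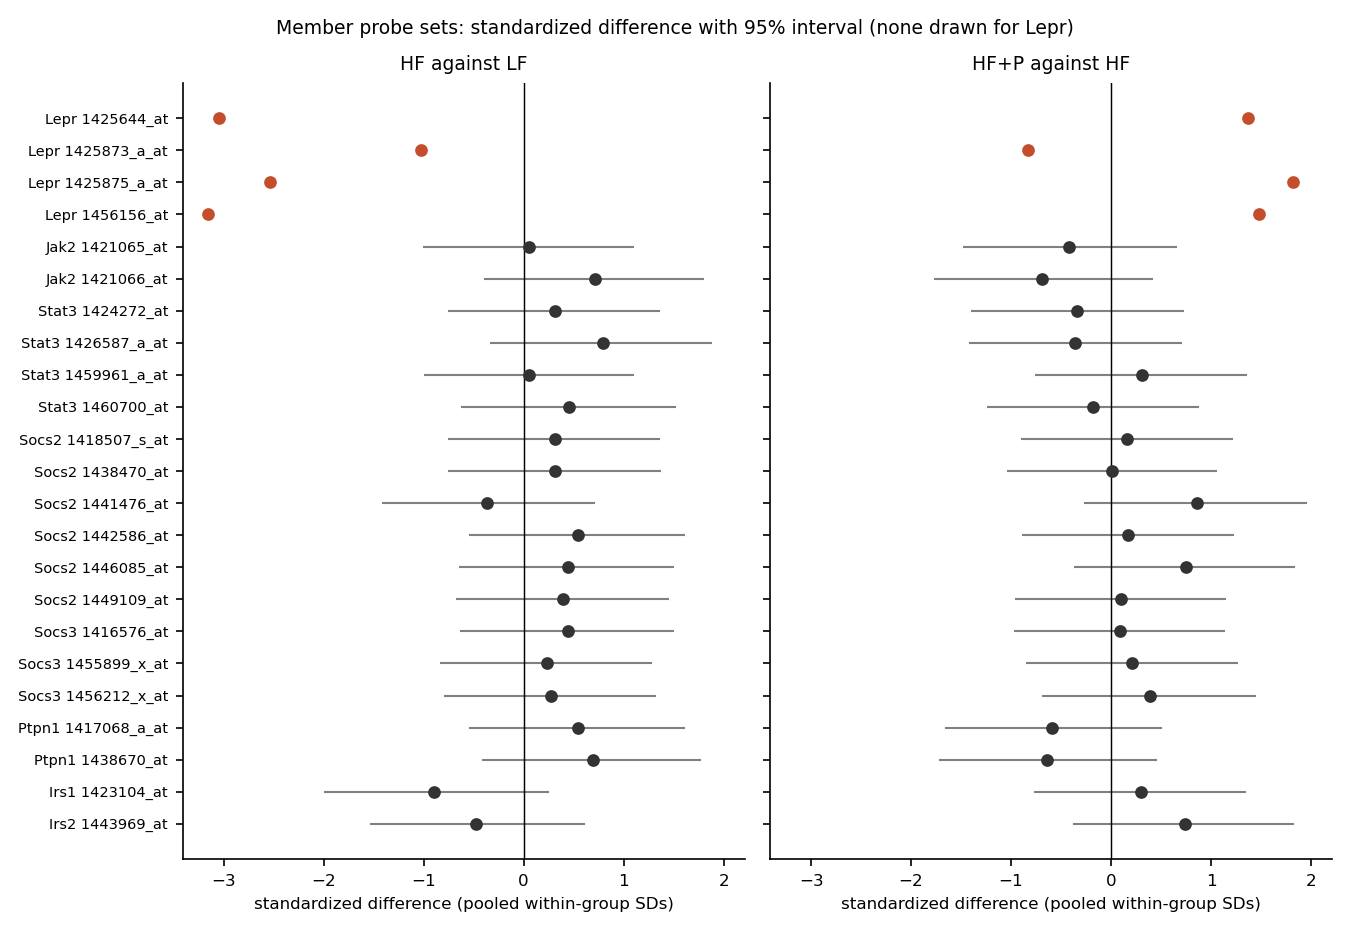
Standardized differences (points, in pooled within-group SDs) of the 23 member probe sets with 95% intervals (lines), HF against LF on the left and HF+P against HF on the right; no interval is drawn for Lepr, whose values chose the family. The 19 probe sets of the other 7 genes lie between -0.89 and 0.80 on the left and between -0.69 and 0.86 on the right, with intervals that all include 0.

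Outside Lepr, 0 of 19 member probe sets passed (limma; 0 had an unadjusted p below 0.05, and 0 an exact permutation p below 0.05, where 12.9% of all probe sets had an unadjusted p below 0.05), with 16 higher and 3 lower in HF and a median of 0.32, against a median of 0.01 over all probe sets. The split depended on the scaling, with 5 higher and 14 lower after centring on column medians and 9 higher and 10 lower after quantile normalisation. Their intervals reached from -1.99 to 1.88.

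What the propagules do was asked by setting HF+P against HF. This comparison shares its HF arrays with the comparison above, processed anew. The same 3 Lepr probe sets had higher values in 5 of 6 HF+P mice than in any HF mouse. Of these 3, 0 passed (limma), where 0.00222% of all probe sets did, and nothing is read from that count. For 1456156_at the HF mice ranged from 7.2895 to 7.2948 (median 7.2917) and the HF+P mice from 7.2893 to 7.3044 (median 7.2982), a standardized difference of 1.48. HF+P mouse 1 lay below every HF mouse, and HF+P mouse 8 was the highest.

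For 1425644_at the HF mice ranged from 6.7119 to 6.7176 (median 6.7155) and the HF+P mice from 6.7125 to 6.7308 (median 6.7220), a standardized difference of 1.37. For 1425875_a_at the HF mice lay between -0.74 and 0.66 pooled SDs from the HF mean and the HF+P mice between -0.50 and 3.20, a standardized difference of 1.82. HF+P mouse 1 alone lay among the HF mice here. Without it the standardized differences were 2.81, 2.35 and 4.10 in the order 1456156_at, 1425644_at and 1425875_a_at. The lowest values in fits without 1 mouse were 1.30 without HF+P mouse 2, 1.20 without HF mouse 3 and 1.63 without HF+P mouse 4, in that order, and 0 of 12 such fits had any of the 3 passing (limma). The fourth probe set, 1425873_a_at, had a value of -0.83, which turned positive after centring on column medians.

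Set side by side, the standardized differences of the 3 Lepr probe sets were -3.16, -3.05 and -2.54 in HF against LF and 1.48, 1.37 and 1.82 in HF+P against HF. Because the HF arrays enter both with opposite sign, the opposite direction is no separate result.

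Markers of other cells were also read in HF+P against HF, and 0 passed (limma). All 8 Kupffer cell markers were lower (median -0.66), with scores from -1.07 to 1.84 in HF and from -1.82 to 0.26 in HF+P. Of 6 lymphocyte and NK cell markers 5 were lower (median -0.38), and of 4 pancreatic acinar markers 3 (median -0.87). Of 8 endothelial and of 8 stellate cell markers 5 each were higher, with medians of 0.20 and 0.10. The HF arrays enter both comparisons with opposite sign, so for these markers too an opposite direction is no separate result. The part of these cells in the Lepr values was not tested.

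The members outside Lepr did not pass in HF+P against HF either. Of 19 probe sets 12 were higher and 7 lower (17 and 2 after centring on column medians, 15 and 4 after quantile normalisation). Their median was 0.10 against -0.01 over all probe sets. Of the 19, 0 passed (limma), 0 had an unadjusted p below 0.05 (6.94% of all probe sets did) and 0 an exact permutation p below 0.05. Jak2 had values of -0.69 (-1.76 to 0.410) and -0.42 (-1.47 to 0.651), and Ptpn1 of -0.64 (-1.71 to 0.452) and -0.59 (-1.65 to 0.497); all 4 turned positive after quantile normalisation. Stat3 ranged from -0.36 to 0.31 over its 4 probe sets, and 3 of these changed sign after quantile normalisation.

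Socs3 had values of 0.09 to 0.39 over its 3 probe sets, and mouse 1 of HF was again its lowest HF animal. Socs2 had values of 0.01 to 0.86 over its 6 probe sets, with HF+P mice between 8.155 and 8.195 and HF mice between 8.151 and 8.202 for 1449109_at; HF+P mice 3 and 8 were the highest and mouse 1 the lowest. The sign for 1449109_at and 1418507_s_at changed without HF mouse 1, 2 or 3 or without HF+P mouse 3 or 8. Irs1 stood at 0.30 (-0.762 to 1.34) and Irs2 at 0.74 (-0.369 to 1.82; limma, adjusted p = 0.817), where HF+P mouse 2 lay highest at 3.20 pooled SDs from the HF mean and 2 HF+P mice exceeded all HF mice.

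How the HF arrays looked in both value sets shows what these numbers can carry. For 13 of the 23 member probe sets the 6 HF mice had the same order in 15 of 15 pairs, and the lowest agreement was 10 of 15 pairs, for Irs2. The SD of the HF mice in the set with LF was between 0.117 times (Irs2) and 14.3 times (Lepr 1425875_a_at) that in the set with HF+P, and all 4 Lepr probe sets were wider in the former, by 3.45 to 14.3 times.

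**Figure D4:**
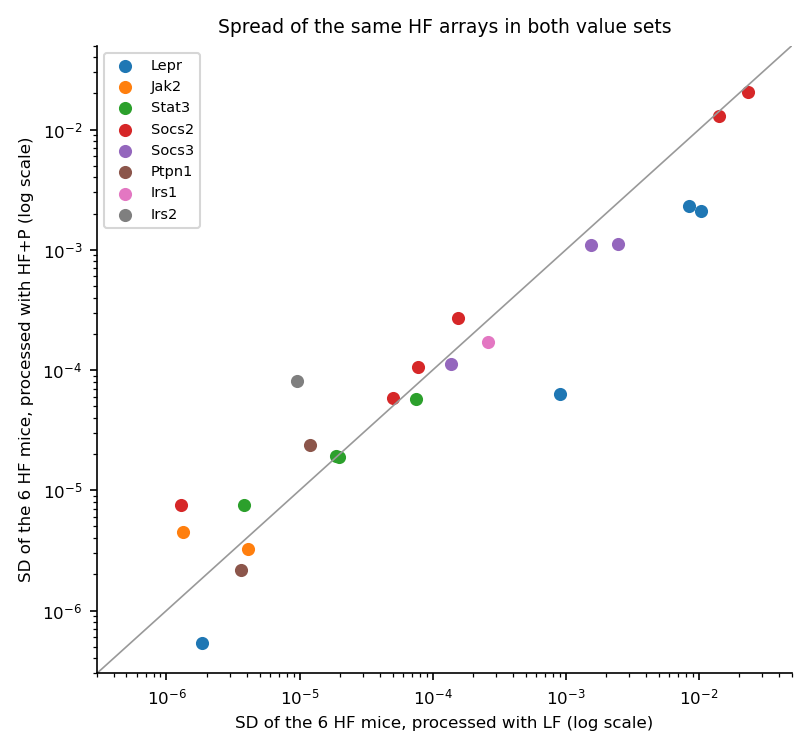
SD of the same 6 HF mice when processed with LF (horizontal, log scale) and with HF+P (vertical, log scale), a point per member probe set; the line marks equal SDs. The 4 Lepr points lie below the line, and Irs2 lies above it.

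Other genes of the pathway were read from lists of receptors, kinases, STAT factors, inhibitors, phosphatases, adaptors, the PI3K-AKT-FOXO branch and known liver targets; 70 of 74 listed genes were analysed here. In HF against LF 34 were higher and 36 lower with a median of -0.05, and 1 of 70 passed, where 0.984% of named genes with 1 probe set each did, so nothing is read from that count. The gene was Igf1, the insulin-like growth factor that the liver secretes and growth hormone induces. Its probe set 1452014_a_at rose by 3.82 pooled SDs (95% interval 1.84 to 5.75; limma, adjusted p = 0.0100), with LF mice between -1.42 and 1.22 pooled SDs from the LF mean (median 0.34) and HF mice between 3.47 and 5.36 (median 3.70). The groups did not overlap, with every HF mouse above the LF mice, as in 0.644% of all probe sets.

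The call of Igf1 held in 12 of 12 fits without 1 mouse. It was lost after centring on column medians (0.45; adjusted p = 0.406) and with the mouse number as a block (adjusted p = 0.0578). The deposited difference of means was 7.86e-05, and the probe set held the same rank among all 45037 probe sets on all 12 arrays, so quantile normalisation leaves no difference to test. The 3 other Igf1 probe sets had values of 2.06, 0.97 and 0.75 and did not pass. In HF+P against HF 1452014_a_at had the opposite sign, -2.24 (-3.63 to -0.786), and did not pass (limma, adjusted p = 0.459). All its HF+P mice lay below all HF mice, as in 0.193% of all probe sets. The HF arrays enter both comparisons with opposite sign, so for Igf1 too the opposite direction is no separate result.

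Next in size in HF against LF were Grb14, an adaptor that inhibits the insulin receptor (-2.20, -3.58 to -0.757; limma, adjusted p = 0.0884), and Igfals, the serum partner of IGF1 that growth hormone also induces (2.16, 0.728 to 3.53; adjusted p = 0.0921). In HF+P against HF 0 of 70 passed (limma; 31 higher, 39 lower, median -0.15), where 0.0055% of named genes did. After Igf1 the largest values there were those of Grb10, an adaptor related to Grb14 (1.41, 0.173 to 2.59; adjusted p = 0.649), and Ptpn11, the phosphatase SHP2 (1.18, -0.005 to 2.32; adjusted p = 0.710). Igf1, Grb14, Igfals, Grb10 and Ptpn11 were picked by passing or by their size among the 70. Their intervals do not allow for that choice, so an interval without 0 is not read as a difference. Among the 5 STAT factors, 3 JAK kinases and 10 SOCS and PIAS inhibitors measured 0 passed in either comparison.

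**Figure D5:**
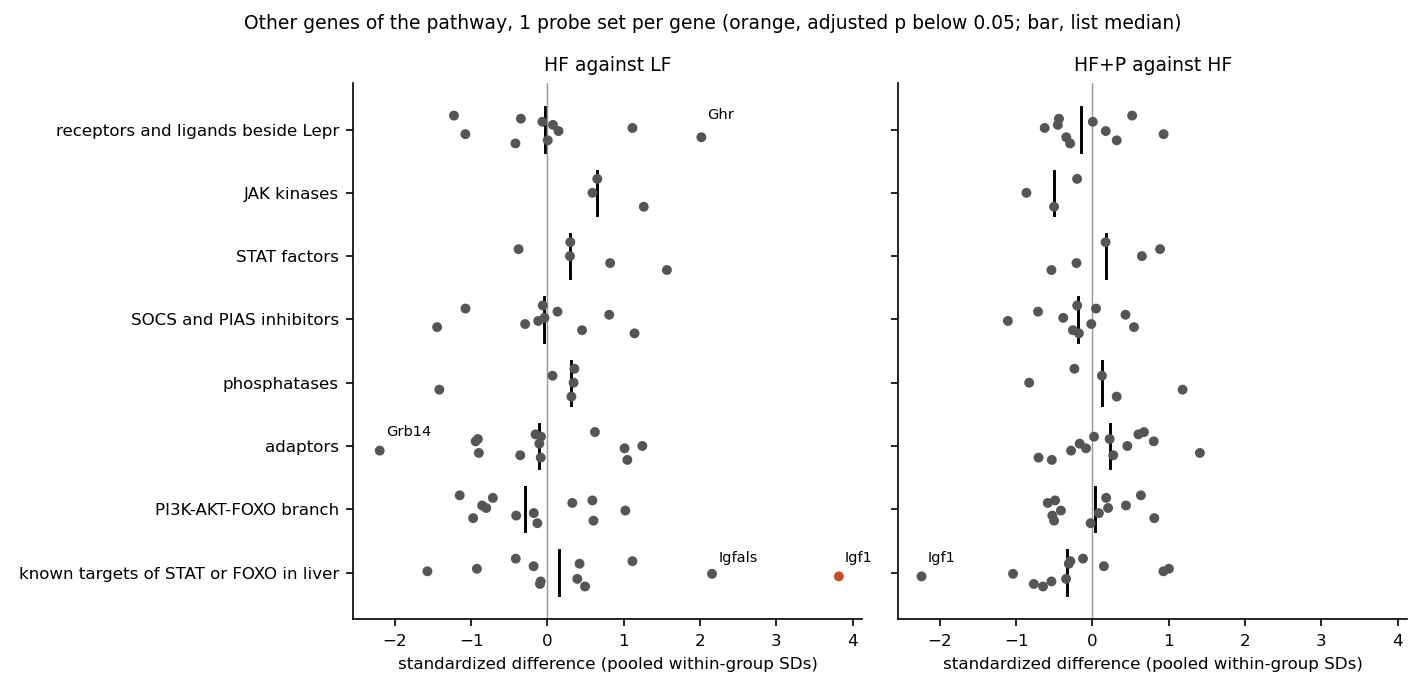
Standardized differences (in pooled within-group SDs) of the 70 other pathway genes by list, a point per gene and a bar at each list's median, HF against LF on the left and HF+P against HF on the right; red-brown marks an adjusted p below 0.05. Igf1 at 3.82 on the left is the 1 such point, and Igf1 at -2.24 is the lowest point on the right.

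Over the 12 LF and HF mice, the genes whose deposited values ran most like Lepr 1456156_at, among 18185 others with 1 probe set each, were Klhdc3 (Pearson r = 0.955), Slc23a1 (-0.952), Golt1a (0.952), Acot1 (0.948) and Acss2 (-0.945). Slc23a1 encodes a vitamin C transporter, Acot1 an acyl-CoA thioesterase and Acss2 the cytosolic acetyl-CoA synthetase. These points share the diet difference, and after each group's mean was taken off r was 0.783, -0.808, 0.834, 0.754 and -0.797 in the same order. Over the 12 HF and HF+P mice r was -0.154, -0.691, 0.178, 0.259 and -0.074. The likeness is a description of these arrays, and of the 5 genes Slc23a1 had the largest r by size in the second set.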

How the data were processed

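Per the labels' protocols, Trizol was used for total RNA, which was amplified with biotin for Affymetrix arrays. The authors deposited log2 values per probe set; R 2.7.2 is named in the submitters' processing notes, while how values were summarised, normalised and logged is not stated there, and log2 was read from the range of 5.36 to 15.0. The table holds 45101 probe sets and 24 columns; 64 control probe sets were left out. Names came from the platform annotation.

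Each comparison was fitted with limma 3.58.1 in R 4.3.3 (lmFit, eBayes, two-sided, Benjamini-Hochberg over 45037 probe sets, threshold 0.05, no covariate), after a check on simulated data. The prior degrees of freedom were 0.719 and 0.755, so probe sets borrowed little from each other. Intervals are 95% intervals from the noncentral t distribution with 10 degrees of freedom. Exact permutation tests used all 924 assignments of 12 mice; the smallest p they can give is 0.00216. The number of arrays limits the precision. Named pathway genes were those that passed and the 3 largest per comparison. The members and lists were chosen with earlier results of these data known. Centring on deviations was added after seeing the data. In the quantile alternative, 4442 (HF against LF) and 4435 (HF+P against HF) probe sets of the same rank on every array become constant and were left out.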

Additional observations from a re-analysis of the deposited data

Results flagged for a closer look

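In 94 groups of 6 mice, 6 had a mouse whose gap to its neighbour took an unusually large share of the group's range (Dixon's criterion; chance flags about 1 in 20 groups). Ptpn1 1417068_a_at had HF mouse 3 highest in both value sets, with a gap of 0.653 of the range when processed with LF and 0.759 when processed with HF+P. For Socs2, HF mouse 8 was highest in 1438470_at (0.657, processed with LF), LF mouse 4 in 1446085_at (0.825) and HF+P mouse 8 in 1441476_at (0.683). Irs2 1443969_at had HF mouse 1 highest in the set with HF+P (0.775). None of these probe sets passed in either comparison, and no Lepr probe set had such a mouse.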

How the results depend on the processing

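In HF against LF 302 probe sets passed; the count was 7305 after quantile normalisation, 42369 after centring on column medians, 568 without dim probe sets and 861 at a threshold of 0.1, and 131 to 325 without 1 mouse. Of the members 2 passed, but 6 after quantile normalisation, 14 after centring on column medians, 1 of 8 with 1 probe set per gene, 0 with the mouse number as a replicate block, and 0 to 3 without 1 mouse. In HF+P against HF 1 passed, 2 after centring on column medians and 0 to 2 without 1 mouse. Of the members 0 passed in every fit. Median centring moves HF against LF by 6.45e-05, more than most members differ, and the median probe set itself did not move (median difference 3.53e-08). Under it the standardized differences were -2.69 and -2.47 for Jak2, -2.68, -2.79 and -1.91 for Stat3 (1424272_at, 1459961_a_at, 1460700_at) and -2.19 and -2.57 for Ptpn1, and the lower values of Irs1, Irs2 and Socs2 1441476_at passed (-1.14, -2.59 and -2.75). After quantile normalisation they were -2.00 for Ptpn1 1417068_a_at and -1.98 for Stat3 1459961_a_at, whose ranks each spanned 4; Socs2 1441476_at passed there with -1.69, and Igf1 has no value there, being of 1 rank on all arrays. The block is no pairing the labels state. Same-numbered mice correlated between -0.13 and 0.0976 in HF and LF and between 0.0338 and 0.209 in HF+P and HF. LF mice 1, 2, 4 and 5, but not LF mice 3 and 8, correlated most with the HF mouse of their own number. HF mice 3 and 8, but not HF mice 1, 2 and 4, did so among the HF+P mice. What same-numbered mice share was not tested. Under the replicate block both Lepr calls and that of Igf1 (limma, adjusted p = 0.0578) were lost. Centring on deviations, trend and robust settings and array weights changed no call of a member.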
